A study of Mus musculus with 10 samples.

Results

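Genes that repair DNA or signal its damage are described here in macrophages sorted from mouse mammary tumours, after treatment of the mice with a glutamine antagonist. The group was given as 34 named genes of known function, chosen with earlier results of these data known, and a row was taken wherever a gene's symbol was listed for a locus. Of these, 33 were found among 46956 loci, and Fanca was not analysed here. The 33 comprised 13 homologous recombination genes, 6 Fanconi anaemia genes, 3 base excision or mismatch repair genes, 4 checkpoint genes and 7 genes called housekeeping repair genes. The macrophages came from tumours of 4T1, a breast cancer cell line of the mouse, which had been implanted into the mammary fat pad; the host strain was BALB/cJ. They were sorted as live CD45+ CD11b+ cells that carried the macrophage antigen encoded by Adgre1 and lacked CD8, Ly6C and Ly6G. The vehicle group received PBS and the JHU083 group received JHU083 at 1 mg/kg from day 7 to day 13; tumours of both groups were taken on day 14. The active form released from the prodrug JHU083, 6-diazo-5-oxo-L-norleucine, resembles glutamine and inhibits enzymes that consume it. Each group had 5 samples. The labels do not say that the samples of a group came from separate mice, so p-values measure the spread between these samples. No mouse in either group carried a genetic change that the labels name.

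Libraries held 11147723 to 15740487 assigned fragments. The loci Rn18s-rs5 and Gm42418, which collect ribosomal RNA, were at 0 in 3 vehicle and 2 JHU083 samples and above 0 in the others. JHU083 replicate 3 stood apart from its group at long transcripts. All 10 macrophage markers examined were measured, with summed levels of 19853 to 25546 CPM in vehicle and 25220 to 33351 CPM in JHU083. Of these markers 4 were higher and 0 lower in JHU083. CPM are read counts normalised to the library total and scaled by TMM. Tumour epithelial markers, chiefly keratins and claudins, were also present: the 11 genes summed to 306 to 666 CPM in vehicle and 105 to 223 CPM in JHU083, none was at 0 in all samples, and all 10 that could be tested were lower in JHU083. Fibroblast and endothelial markers summed to 205 to 315 CPM in vehicle and 75.2 to 127 CPM in JHU083, with 5 of 6 lower. T and NK cell markers were low and summed to 16 to 20.2 CPM in vehicle and 28 to 45.6 CPM in JHU083. Of the 2 that could be tested, 1 was higher. Of 5 neutrophil markers 2 were lower and 1 higher. Among B cell and eosinophil markers 1 gene each was higher, and 0 dendritic cell markers were called. The mitochondrial share of fragments was 1.53% to 2.09% in vehicle and 2.14% to 2.44% in JHU083. The part of macrophage, T, NK, B, eosinophil and neutrophil markers and of the mitochondrial share in the results was not tested. In bulk RNA, fewer cells of a type and less RNA per cell cannot be told apart.

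Homologous recombination mends broken chromosomes by copying the sister chromatid, and its genes are mostly transcribed while cells copy their DNA. Fanconi anaemia proteins open that route when strands are crosslinked, and the kinases ATR and CHK1 hold the cell cycle while forks are stalled. End joining, nick repair and the kinase ATM also serve cells that do not divide, and are commonly regarded as housekeeping repair. The genes called housekeeping here also include Atr and its partner Atrip, which take part in the fork signalling named above. Mature macrophages in tissue mostly divide less often than carcinoma cells, and division of the cells sorted here was not measured.

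Many genes of the S phase are regulated by E2F factors, whose sites lie near the start of transcription. The RefSeq promoter windows (GRCm38.p6, 250 bases before to 50 after the start site) were searched on both strands for TTTCCCGC, TTTGGCGC, TTTCGCGC or TTTGCCGC. Of the 33 genes, 27 had a window, and 6 of these (22.2%) held such letters, against 626 of 27025 genes overall (2.32%). They were found in 3 of 15 windows of genes that were lower in JHU083 (20%) and in 3 of 12 windows of genes that did not pass the test (25%). The letters GGCGGGAA, a second form of the site that overlaps the first by up to 7 bases and was searched after the Chek1 window had been read, were present in 5 of the 27 (18.5%) and in 2.24% of all genes. Either form was present in 5 of 15 windows of lower genes (33.3%) and in 5 of 12 windows of genes that did not pass (41.7%). A match of letters is a description and not a bound site. The windows below are shown because they belong to lower genes that held the letters (Bard1, Msh6, Xrcc6), to a lower housekeeping gene without them (Parp1), and to the checkpoint kinases that differed in response (Chek1, Chek2). Chek1 and Chek2 were chosen for printing after their values were seen. Capitals mark the E2F letters in both forms. The start site is that of RefSeq and can differ from the gene start in GENCODE. The Bard1 window lies at chr1:71102923-71103222, minus strand, Msh6 at chr17:87974800-87975099, plus strand, Xrcc6 at chr15:82016119-82016418, plus strand, Parp1 at chr1:180568641-180568940, plus strand, Chek1 at chr9:36726609-36726908, minus strand and Chek2 at chr5:110839733-110840032, plus strand, all in GRCm38.p6.
Bard1: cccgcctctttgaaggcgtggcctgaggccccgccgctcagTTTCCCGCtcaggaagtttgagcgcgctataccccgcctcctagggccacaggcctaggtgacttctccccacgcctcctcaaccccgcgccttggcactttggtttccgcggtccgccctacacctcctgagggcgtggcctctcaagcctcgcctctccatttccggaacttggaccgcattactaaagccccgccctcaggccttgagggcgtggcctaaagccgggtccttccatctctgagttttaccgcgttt
Msh6: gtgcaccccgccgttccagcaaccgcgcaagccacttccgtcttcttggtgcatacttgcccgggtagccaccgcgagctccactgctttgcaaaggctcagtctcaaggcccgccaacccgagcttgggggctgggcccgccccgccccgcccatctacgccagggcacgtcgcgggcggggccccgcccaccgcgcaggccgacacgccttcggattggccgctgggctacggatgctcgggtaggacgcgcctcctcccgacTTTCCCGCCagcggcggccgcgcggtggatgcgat
Xrcc6: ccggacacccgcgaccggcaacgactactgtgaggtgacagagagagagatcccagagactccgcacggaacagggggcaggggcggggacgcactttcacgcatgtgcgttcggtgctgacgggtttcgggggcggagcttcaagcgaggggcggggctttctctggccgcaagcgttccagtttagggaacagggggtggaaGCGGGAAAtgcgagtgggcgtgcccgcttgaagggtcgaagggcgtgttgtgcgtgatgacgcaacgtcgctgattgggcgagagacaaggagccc
Parp1: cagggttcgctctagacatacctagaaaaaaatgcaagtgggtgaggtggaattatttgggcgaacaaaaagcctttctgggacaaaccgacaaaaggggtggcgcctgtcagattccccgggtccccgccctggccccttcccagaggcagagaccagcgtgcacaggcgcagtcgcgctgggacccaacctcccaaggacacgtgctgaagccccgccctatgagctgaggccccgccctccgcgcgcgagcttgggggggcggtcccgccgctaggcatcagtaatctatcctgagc
Chek1: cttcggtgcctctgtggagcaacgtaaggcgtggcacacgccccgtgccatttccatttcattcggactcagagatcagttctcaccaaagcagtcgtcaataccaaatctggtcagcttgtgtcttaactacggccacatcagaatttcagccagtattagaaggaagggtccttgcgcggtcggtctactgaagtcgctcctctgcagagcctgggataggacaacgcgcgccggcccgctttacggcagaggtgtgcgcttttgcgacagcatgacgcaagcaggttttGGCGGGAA
Chek2: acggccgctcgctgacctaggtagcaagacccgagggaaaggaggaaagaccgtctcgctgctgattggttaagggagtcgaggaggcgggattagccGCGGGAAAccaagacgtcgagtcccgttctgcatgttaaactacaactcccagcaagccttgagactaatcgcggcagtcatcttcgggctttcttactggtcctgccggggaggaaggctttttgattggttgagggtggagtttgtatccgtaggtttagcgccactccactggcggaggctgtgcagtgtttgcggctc
The match began 209 bases before the start in Bard1, 46 before it in Xrcc6 and 152 before it in Chek2. It began at base 16 after the start in Msh6, where the forms overlap, and at base 43 in Chek1. The CHR letters TTTGAA or TTTAAA were in 7.41% of the 27 windows and in 27.8% of all, and CCAAT in 59.3% and 37.9%. Chek1, which fell, and Chek2, which did not pass the test, both held an E2F form.

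Of the 33 genes, 19 fell in JHU083 and none rose at an adjusted p under 0.05 (edgeR quasi-likelihood test over 12500 loci). Over all loci tested, 18.3% were lower, 18.4% were higher and 36.7% differed in either direction. Scaled by library totals only, 3141 loci were lower and 1564 higher, in place of 2293 and 2296, and the same 19 of the 33 genes were lower. DESeq2 and limma-voom each also gave 19 lower and 0 higher, as did an unadjusted p under 0.05 in edgeR. The 33 genes had a median log2 fold change of -0.40, and 28 of them were negative, while the median of all loci was 0.01. In 16 of the 33 every JHU083 sample lay below every vehicle sample, against 11.1% of all loci. The decreases were found in all 5 groups of genes: 8 of 13 homologous recombination genes, 3 of 6 Fanconi genes, 2 of 3 base excision or mismatch genes, 3 of 4 checkpoint genes and 3 of 7 housekeeping genes.

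**Figure D1:**
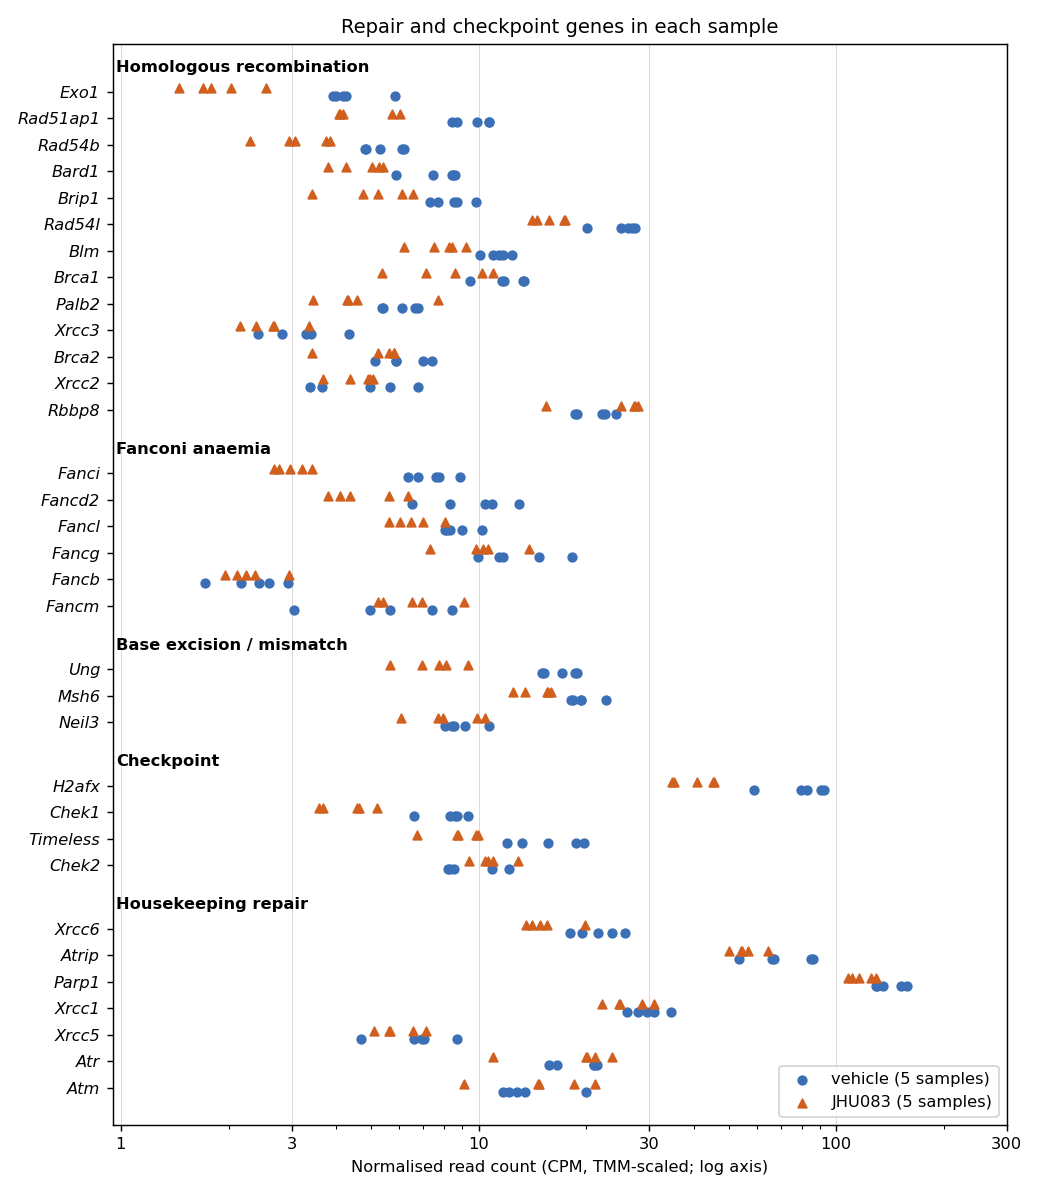
Normalised read count (CPM, log axis) of each of the 33 genes in each sample, with vehicle as circles and JHU083 as triangles, grouped by role. The groups do not overlap for 16 genes, among them Fanci, Exo1, Ung and H2afx, and they mix for Atr, Fancb and Xrcc2.

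The tumour epithelial markers moved with this result. With the marker level as a covariate, a fit added after seeing the data, all 19 genes stayed negative with a median log2 of -0.93, and 8 of them passed the test. Of the 11 that lost the call there, Brca1 (-0.27), Bard1 (-0.44), Brip1 (-0.18), Blm (-0.36) and Msh6 (-0.14) had smaller decreases than without the covariate. Exo1 (-1.24), Rad51ap1 (-0.99), Rad54b (-0.75), Fancd2 (-1.07), Fancl (-0.52) and Chek1 (-0.82) stayed close to their values without it. In that fit 10 of the 33 genes were lower (Fancg and Xrcc1 were the added calls) and 4 were higher, namely Atm (1.24), Atr (0.97), Fancm (1.78) and Rbbp8 (1.03, log2). Of the homologous recombination genes only Rad54l remained lower there, while 4 of 7 housekeeping genes were lower. The marker levels of the groups did not overlap, so treatment and marker level cannot be told apart. Within the samples where Rn18s-rs5 was at 0, 7 of 33 genes were lower and the 19 had a median of -0.69. Within the others 13 were lower and the median was -0.64, and all 19 were negative in both.

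Of the 13 homologous recombination genes, 8 were lower in JHU083 and 5 did not pass the test. Exo1, which resects broken ends, had 5.84, 4.27, 4, 4.17 and 3.91 CPM in vehicle and 1.7, 2.54, 1.79, 1.45 and 2.03 CPM in JHU083, in replicate order 1 to 5 as in all lists that follow. The highest JHU083 sample stood below the lowest vehicle sample. Exo1 (XLOC_001477, chromosome 1, 175880581 to 175913489, GRCm38) went from 4.44 ± 0.796 to 1.9 ± 0.41 CPM (SD, n = 5 per group), a log2 fold change of -1.22 ± 0.20 (SE, edgeR adjusted p = 0.000401); it fell by 57%. Rad51ap1, which stimulates strand invasion, had 10.7, 9.9, 8.45, 8.69 and 10.7 CPM in vehicle and 5.73, 4.11, 4.18, 6.04 and 4.06 CPM in JHU083. Its groups did not overlap, and its log2 fold change of -1.01 ± 0.15 (SE, edgeR adjusted p = 0.000202) was a fold of 0.5.

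RAD54L and RAD54B are DNA translocases that act in strand exchange. Rad54l had 27.3, 26.1, 20.1, 25.1 and 26.8 CPM in vehicle and 15.7, 17.3, 17.4, 14.6 and 14.1 CPM in JHU083. Vehicle replicate 3 was the low sample of its group and still above all JHU083 samples, and the log2 fold change of -0.67 ± 0.10 (SE, edgeR adjusted p = 0.000286) had the smallest SE of the recombination genes. Rad54b, whose locus also lists Fsbp, had 6.18, 4.8, 6.11, 5.3 and 4.85 CPM in vehicle and 3.75, 3.84, 3.06, 2.29 and 2.95 CPM in JHU083. It fell as well, with separate groups and a log2 fold change of -0.77 ± 0.17 (SE, edgeR adjusted p = 0.00342).

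Brca1, which directs breaks to recombination, had 11.6, 13.4, 11.8, 9.47 and 13.3 CPM in vehicle and 10.2, 8.57, 5.37, 7.11 and 11 CPM in JHU083. The groups overlapped: JHU083 replicates 1 and 5 lay above the lowest vehicle sample, and JHU083 replicate 3 was lowest of all. The log2 fold change of -0.49 ± 0.17 (SE, edgeR adjusted p = 0.0391) passed the test, but 7 of the 10 fits that left out a sample did not pass; without JHU083 replicate 3 it was -0.37 (adjusted p = 0.052). Bard1, the ubiquitin ligase partner of BRCA1, ranged over 5.88 to 8.61 CPM in vehicle and 3.8 to 5.39 CPM in JHU083, with no overlap and a log2 fold change of -0.71 ± 0.15 (SE, edgeR adjusted p = 0.00276). Brip1, a helicase bound by BRCA1, ranged over 7.33 to 9.83 CPM in vehicle and 3.43 to 6.55 CPM in JHU083, also with no overlap (log2 fold change -0.69 ± 0.17 SE, edgeR adjusted p = 0.00587). Blm, the Bloom syndrome helicase, ranged over 10.1 to 12.4 CPM in vehicle and 6.19 to 9.25 CPM in JHU083 with no overlap and had a log2 fold change of -0.52 ± 0.12 (SE, edgeR adjusted p = 0.00498).

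The other 5 homologous recombination genes did not pass the test. Brca2, a mediator of strand exchange, had 6.99, 7.39, 5.88, 5.13 and 5.87 CPM in vehicle and 5.8, 5.62, 3.43, 5.81 and 5.24 CPM in JHU083, and the groups overlapped. Its log2 fold change of -0.27 ± 0.17 (SE, edgeR adjusted p = 0.218) became -0.16 without JHU083 replicate 3, the low sample. Palb2, which joins BRCA1 and BRCA2, ranged over 5.36 to 6.78 CPM in vehicle and 3.44 to 7.68 CPM in JHU083 (log2 fold change -0.31 ± 0.20 SE, edgeR adjusted p = 0.229). It passed the test without JHU083 replicate 2, its highest sample, at -0.54 (adjusted p = 0.018). Xrcc2, which also acts in strand exchange, had 6.79, 5.64, 4.98, 3.65 and 3.37 CPM in vehicle and 4.98, 5.07, 4.92, 4.36 and 3.67 CPM in JHU083. Xrcc3 had 3.4, 2.82, 2.41, 4.34 and 3.29 CPM in vehicle and 2.66, 3.36, 2.39, 2.68 and 2.16 CPM in JHU083. Both overlapped between groups, with log2 fold changes of -0.09 (adjusted p = 0.739) and -0.29 (adjusted p = 0.278). Rbbp8, which encodes the resection factor CtIP, was the only positive gene of this group: it ranged over 18.6 to 24.3 CPM in vehicle and 15.4 to 28 CPM in JHU083 with a log2 fold change of 0.21 ± 0.15 (SE, edgeR adjusted p = 0.274). Without JHU083 replicate 3, its lowest sample, Rbbp8 was higher at 0.34 (adjusted p = 0.01).

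**Figure D2:**
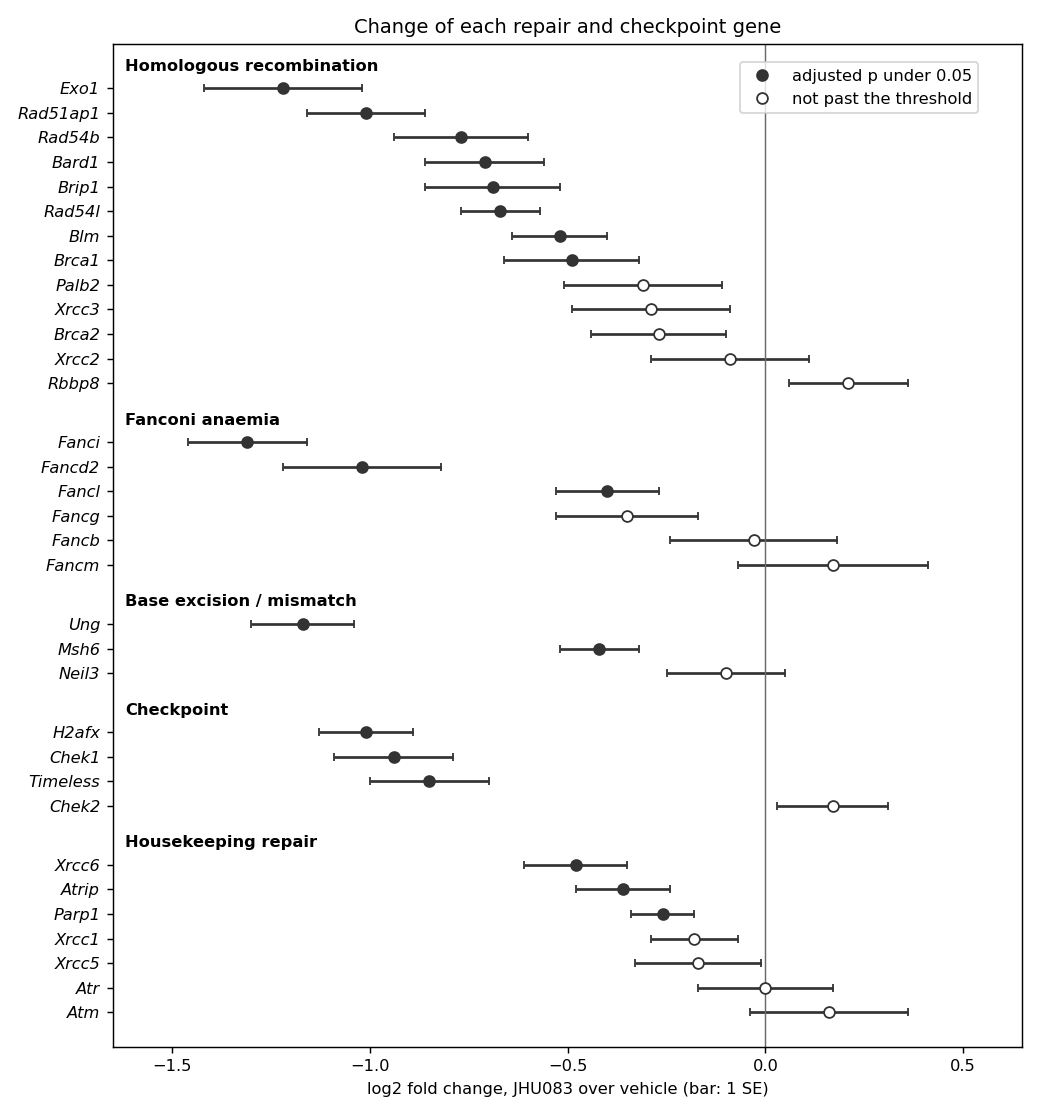
Log2 fold change (JHU083 over vehicle) of each of the 33 genes with bars of 1 SE, filled where the adjusted p is under 0.05, grouped by role. Fanci lies farthest to the left at -1.31, filled points are all left of 0, and Rbbp8, Fancm, Chek2 and Atm lie to its right as open points.

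Among Fanconi anaemia genes, the clamp that is ubiquitinated at crosslinks changed most. Fanci, which encodes 1 subunit of that clamp, had 7.74, 6.78, 7.62, 6.34 and 8.85 CPM in vehicle and 3.2, 3.43, 2.76, 2.98 and 2.68 CPM in JHU083. The highest JHU083 sample, at 3.43 CPM, lay far below the lowest vehicle sample, at 6.34 CPM. Fanci (XLOC_034996, chromosome 7, 79391929 to 79450264, GRCm38) was reduced from 7.47 ± 0.966 to 3.01 ± 0.309 CPM (SD, n = 5 per group), a log2 fold change of -1.31 ± 0.15 (SE, edgeR adjusted p = 2.1e-05); it fell by 59.6%. Fancd2, its partner in the clamp, had 13, 10.4, 8.3, 6.52 and 10.9 CPM in vehicle and 6.34, 5.62, 4.1, 4.36 and 3.8 CPM in JHU083. The groups met without overlap, at 6.34 and 6.52 CPM, and the log2 fold change of -1.02 ± 0.20 (SE, edgeR adjusted p = 0.00129) was a fold of 0.49.

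Fancl, the ubiquitin ligase that modifies the clamp, had 10.2, 8.99, 8.3, 8.08 and 8.14 CPM in vehicle and 8.05, 5.62, 6.49, 6.04 and 7.01 CPM in JHU083. The decrease was smaller, with the groups meeting at 8.05 and 8.08 CPM and a log2 fold change of -0.40 ± 0.13 (SE, edgeR adjusted p = 0.0289); the call was lost in 4 of the 10 fits that left out a sample. Fancg, an adaptor of the core complex, had 18.3, 11.7, 11.4, 9.99 and 14.8 CPM in vehicle and 10.6, 10.3, 13.8, 7.34 and 9.82 CPM in JHU083. Its groups overlapped, and its log2 fold change of -0.35 ± 0.18 (SE, edgeR adjusted p = 0.141) passed only without JHU083 replicate 3 (-0.47, adjusted p = 0.038) among those fits. Fancb, also of the core complex, ranged over 1.72 to 2.94 CPM in vehicle and 1.96 to 2.95 CPM in JHU083 (log2 fold change -0.03 ± 0.21 SE, edgeR adjusted p = 0.919). Fancm, the translocase that anchors the complex to DNA, ranged over 3.05 to 8.45 CPM in vehicle and 5.22 to 9.12 CPM in JHU083 (log2 fold change 0.17 ± 0.24 SE, edgeR adjusted p = 0.605). Neither passed the test.

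Of the base excision and mismatch genes, Ung and Msh6 fell. Ung, the glycosylase that removes uracil from DNA, had 18.6, 17.1, 15.2, 15 and 18.8 CPM in vehicle and 6.96, 7.75, 9.32, 5.66 and 8.12 CPM in JHU083. The highest JHU083 sample was well under the lowest vehicle sample. Ung (XLOC_028708, chromosome 5, 114130386 to 114139323, GRCm38) went from 17 ± 1.79 to 7.56 ± 1.36 CPM (SD, n = 5 per group), a log2 fold change of -1.17 ± 0.13 (SE, edgeR adjusted p = 2.23e-05); it fell by 55.4%. Neil3, a glycosylase that removes oxidised bases and unhooks crosslinks, had 10.7, 9.14, 8.07, 8.43 and 8.53 CPM in vehicle and 10.4, 9.87, 7.68, 7.95 and 6.09 CPM in JHU083. Of its JHU083 samples, 3 lay below the lowest vehicle sample and the others within the vehicle range, and its log2 fold change of -0.10 ± 0.15 (SE, edgeR adjusted p = 0.649) did not pass. Msh6, a sensor of mismatched bases, ranged over 18.1 to 22.7 CPM in vehicle and 12.5 to 15.9 CPM in JHU083 with no overlap and had a log2 fold change of -0.42 ± 0.10 (SE, edgeR adjusted p = 0.00567); with the epithelial marker covariate it was -0.14 (adjusted p = 0.691).

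Of the 4 checkpoint genes, H2afx, Chek1 and Timeless fell and Chek2 did not pass the test. H2afx, the histone variant phosphorylated around breaks, had 90.8, 82.7, 59, 79.7 and 92.6 CPM in vehicle and 45.3, 40.8, 45.5, 34.8 and 35.2 CPM in JHU083. All JHU083 samples lay below all vehicle samples, and vehicle replicate 3 was the lowest of its group. H2afx (XLOC_040949, chromosome 9, 44334694 to 44336077, GRCm38) was reduced from 81 ± 13.4 to 40.3 ± 5.21 CPM (SD, n = 5 per group), a log2 fold change of -1.01 ± 0.12 (SE, edgeR adjusted p = 4.01e-05). Other H2A genes are similar in sequence, so fragments could be shared among them. Chek1, the kinase activated by ATR at stalled forks, had 9.37, 8.61, 8.3, 6.6 and 8.69 CPM in vehicle and 4.64, 5.21, 3.58, 3.67 and 4.58 CPM in JHU083. Its groups were separate, with a log2 fold change of -0.94 ± 0.15 (SE, edgeR adjusted p = 0.000317); it fell by 47.8%. Timeless, a fork protection factor, ranged over 12 to 19.7 CPM in vehicle and 6.73 to 9.96 CPM in JHU083, again with no overlap (log2 fold change -0.85 ± 0.15 SE, edgeR adjusted p = 0.000824). Chek2, the kinase activated by ATM, had 12.2, 8.23, 8.3, 8.52 and 10.9 CPM in vehicle and 10.4, 12.9, 10.6, 11 and 9.43 CPM in JHU083. Its JHU083 samples lay within or just above the vehicle range, and its log2 fold change of 0.17 ± 0.14 (SE, edgeR adjusted p = 0.357) was positive and not past the test.

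The housekeeping repair genes had a median log2 fold change of -0.18, against -0.52 for the homologous recombination genes and 0.01 for all loci. Without JHU083 replicate 3 the medians lay closer, at -0.25 for housekeeping and -0.44 for homologous recombination genes. With sample quality weights in limma-voom they were -0.24 and -0.47. With the epithelial marker covariate this order turned, with a median of -0.52 for housekeeping and -0.35 for homologous recombination genes. The difference between these lists was not tested. Parp1, the sensor of nicks, had 152, 135, 129, 130 and 158 CPM in vehicle and 116, 129, 125, 111 and 108 CPM in JHU083. The groups met at 129 CPM without overlap, and the decrease was small but past the test (log2 fold change -0.26 ± 0.08 SE, edgeR adjusted p = 0.0225), and Parp1 fell by 16.5%; the locus also lists Mir6904. The call was lost in 4 of the 10 fits that left out a sample. Xrcc1, the scaffold of nick repair, had 31, 29.5, 26, 27.9 and 34.5 CPM in vehicle and 28.7, 22.1, 30.9, 24.8 and 24.7 CPM in JHU083. It overlapped and did not pass (log2 fold change -0.18 ± 0.11 SE, edgeR adjusted p = 0.193).

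The Ku heterodimer holds broken ends for joining. Xrcc6, which encodes Ku70, had 25.7, 18, 19.5, 21.6 and 23.6 CPM in vehicle and 13.6, 14.9, 19.9, 14.1 and 15.5 CPM in JHU083. JHU083 replicate 3 was the only JHU083 sample inside the vehicle range, and the log2 fold change of -0.48 ± 0.13 (SE, edgeR adjusted p = 0.00954) passed in all 10 fits that left out a sample. Xrcc5, which encodes Ku80, had 6.59, 8.69, 7.02, 6.95 and 4.7 CPM in vehicle and 5.11, 7.13, 6.56, 5.66 and 5.63 CPM in JHU083. Vehicle replicate 5 was the lowest of all 10 samples, and the log2 fold change of -0.17 ± 0.16 (SE, edgeR adjusted p = 0.43) did not pass.

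The apical kinases did not pass the test. Atm had 11.7, 13.5, 20, 12.8 and 12.2 CPM in vehicle and 14.8, 21.2, 9.1, 14.7 and 18.5 CPM in JHU083. Vehicle replicate 3 was high and JHU083 replicate 3 low, and the log2 fold change of 0.16 ± 0.20 (SE, edgeR adjusted p = 0.556) became 0.31 without the latter (adjusted p = 0.138). Atr had 16.6, 21.5, 21, 21 and 15.7 CPM in vehicle and 20, 21.2, 11, 20.1 and 23.6 CPM in JHU083. Of its JHU083 samples, 4 lay within or above the vehicle range and replicate 3 below it; the log2 fold change of 0.00 ± 0.17 (SE, edgeR adjusted p = 0.992) became 0.15 without it (adjusted p = 0.296). Atrip, the partner of ATR, was measured at a locus that also lists Gm42641 and the exonuclease gene Trex1, so its values cover all of them. This locus had 86.2, 66.1, 53.5, 67 and 84.8 CPM in vehicle and 54.1, 56.8, 64.3, 54.4 and 50.2 CPM in JHU083. It fell with overlapping groups (log2 fold change -0.36 ± 0.12 SE, edgeR adjusted p = 0.0338), and the call was lost in 6 of the 10 fits that left out a sample. Leaving out vehicle replicate 1 or 5, or JHU083 replicate 4 or 5, left Xrcc6 as the only housekeeping gene called, so that 1 of 7 was lower.

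**Figure D3:**
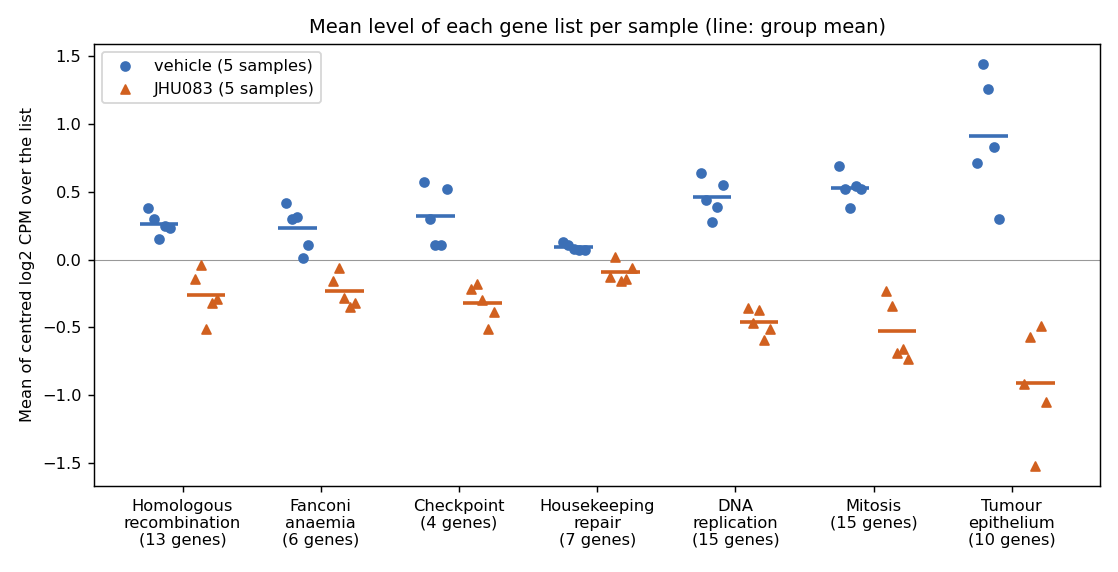
Mean over each list of log2 CPM centred on each gene's mean, 1 point per sample, with lines at the group means; circles are vehicle and triangles JHU083. Homologous recombination genes span 0.15 to 0.38 in vehicle and -0.51 to -0.04 in JHU083, housekeeping genes 0.07 to 0.13 and -0.16 to 0.02, and tumour epithelial markers 0.30 to 1.44 and -1.52 to -0.49.

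Pairs of genes with related roles were compared by their log2 ratio within each sample, which depends little on library scaling. Of 8 pairs, 2 differed at an adjusted exact two-sided permutation p under 0.05. The ratio of Chek1 to Chek2 was -0.20 ± 0.21 in vehicle and -1.30 ± 0.23 in JHU083 (SD, n = 5), a difference of -1.10 (exact p = 0.0079, adjusted p = 0.0317). Every vehicle ratio lay at or above -0.38 and every JHU083 ratio at or below -1.02. The ratio of Neil3 to Ung was -0.91 ± 0.13 in vehicle and 0.14 ± 0.45 in JHU083 (SD, n = 5), a difference of 1.05 with the same exact p-values (exact p = 0.0079, adjusted p = 0.0317). The exact p is the smallest that 5 against 5 can give. Leaving out each sample in turn gave differences of -1.17 to -1.04 for Chek1 over Chek2 and 0.94 to 1.19 for Neil3 over Ung. The adjusted exact p was then 0.0317 or 0.0635, steps set by the few splits of the remaining samples. Each of these pairs lost the call in 5 of the 10 fits that left out a sample. Within samples these genes moved apart: Chek1 and Ung fell, and Chek2 and Neil3 did not pass the test.

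The ratio of Fancd2 to Fancl differed by -0.59 and did not pass after adjustment (exact p = 0.0238, adjusted p = 0.0635), except without JHU083 replicate 2 (-0.71, adjusted exact p = 0.0423). Rad54l over Rad54b differed by 0.11 (exact p = 0.5238), Atr over Atm by -0.17 (exact p = 0.2619) and Xrcc2 over Xrcc3 by 0.22 (exact p = 0.4524). The pairs that set a recombination gene against a housekeeping gene did not differ past the threshold: Brca1 over Xrcc6 by -0.05 (exact p = 0.881) and Brca2 over Parp1 by -0.02 (exact p = 0.9365). On FPKM, Rad54l over Rad54b (-0.20), Brca1 over Xrcc6 (0.07) and Brca2 over Parp1 (0.17) had the opposite sign and did not pass. Without JHU083 replicate 3, Brca1 over Xrcc6 was 0.19 and Brca2 over Parp1 0.14. Brca1 and Xrcc6 fell by similar amounts, although they stand in different lists. A p that misses the threshold does not show that these ratios were equal.

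**Figure D4:**
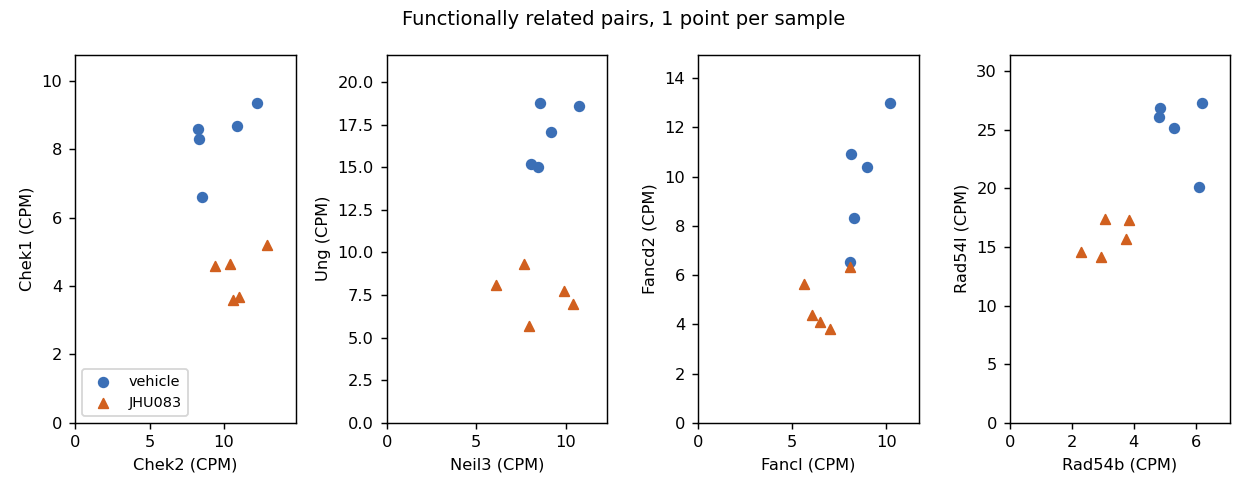
CPM of both genes of 4 pairs, 1 point per sample, with vehicle as circles and JHU083 as triangles and axes from 0. For Chek1 against Chek2 and Ung against Neil3 the groups separate along the vertical axis only, while for Rad54l against Rad54b they separate on both axes.

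JHU083 replicate 3 was low at long transcripts. Of the 10 genes whose longest transcript has at least 5000 bases, 8 were lowest of their group in this sample, with a median difference of -0.69 on the log2 scale from the other 4 JHU083 samples. Of the 23 shorter genes, 3 were lowest and the median was -0.03. Over all loci its median deviation was 0.23 under 2000 bases and -0.45 over 8000 bases, and its quality weight in limma was 0.29. Without it 19 of 33 genes were lower, of which 18 were among the 19 named above; Brca1 left and Fancg joined. With a correction for transcript length, added after seeing the data, the same 19 genes were lower.

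**Figure D5:**
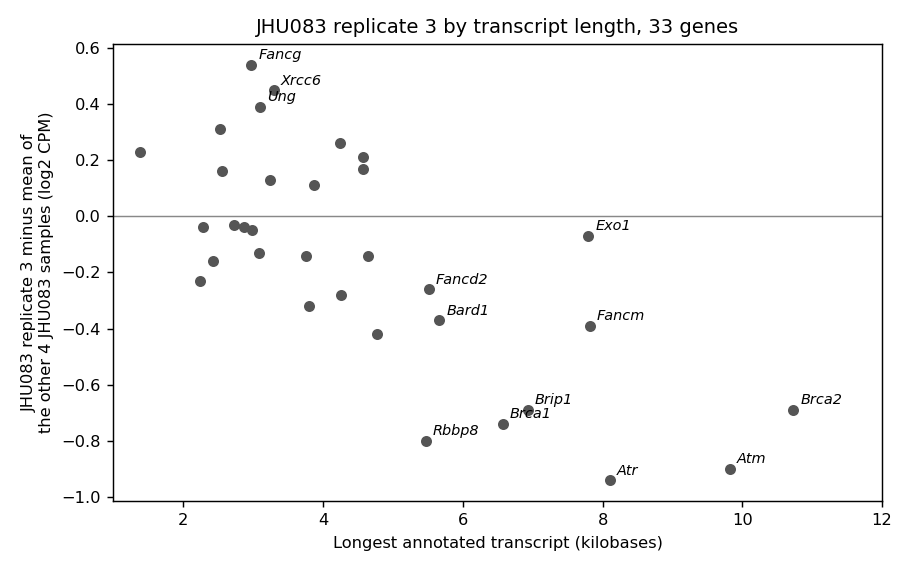
Difference between JHU083 replicate 3 and the mean of the other 4 JHU083 samples (log2 CPM) against the longest annotated transcript (kilobases), 1 point per gene. Genes of at least 5000 bases lie below 0, with Atr lowest at -0.94, while Fancg, Xrcc6 and Ung lie above it.

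Levels can be compared between genes only per length, as FPKM, the read count normalised to transcript length and library total. The Atrip locus (69.3 ± 13.9) and H2afx (63.6 ± 10.4 FPKM, SD, n = 5) were highest in vehicle and did not differ beyond their spread. Parp1 followed at 37.9 ± 3.42 FPKM, then Xrcc1 at 14.6 ± 1.26 and Xrcc6 at 10.7 ± 1.68 (SD, n = 5). In JHU083, H2afx (31.8 ± 4.11) and Parp1 (31.3 ± 1.84 FPKM, SD, n = 5) lay within their spread of each other. The lowest genes were Fancm at 0.716 ± 0.258 and Fancb at 0.804 ± 0.152 FPKM in vehicle (SD, n = 5). Fanci, which changed most, was a low gene, with 1.63 ± 0.173 FPKM in vehicle and 0.755 ± 0.151 in JHU083 (SD, n = 5).

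Other genes of repair and checkpoint signalling were examined as a list of 132 genes. Of these 35 were lower and 11 were higher in JHU083, with a median log2 fold change of -0.12. Over all loci 18.3% were lower and 18.4% higher, so the share of higher genes in this list was below that of all loci. The number of higher genes was 18 without JHU083 replicate 3, 6 without vehicle replicate 1, 7 without vehicle replicate 2 and 6 with library totals only. Of 29 other recombination genes 10 were lower and 2 higher. Rmi2, a subunit of the Bloom helicase complex, fell most (-1.78, adjusted p = 1.5e-05), followed by the helicase Recql4 (-1.37, adjusted p = 0.000799). The higher genes were Nbn, of the break-sensing MRN complex (0.52, adjusted p = 0.00886), and Smc6 (0.37, adjusted p = 0.0484), and the treatments overlapped for both. Without JHU083 replicate 3 Nbn was at 0.61. The Smc6 call was lost in 8 of the 10 fits that left out a sample, and also with limma-voom (adjusted p = 0.062) and with library totals only (adjusted p = 0.135).

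Among 10 other Fanconi genes, 2 were lower, the conjugating enzyme Ube2t (-0.54, adjusted p = 0.0156) and Faap24 (-0.50, adjusted p = 0.0164), a share near the 18.3% of all loci. End joining, with a share below that of all loci, showed 1 of 11 lower, Paxip1 (-0.26, adjusted p = 0.0347, lost in 6 of the 10 fits that left out a sample, among them that without JHU083 replicate 3 at an adjusted p of 0.0523), and 1 higher, the nuclease gene Dclre1c, which encodes Artemis (0.57, adjusted p = 0.0114). Base excision had 6 of 21 lower, led by the ligase Lig1 (-1.08, adjusted p = 2.18e-05), the flap nuclease Fen1 (-0.77, adjusted p = 8.6e-05) and Apex1 (-0.49, adjusted p = 0.0011). Lig1 and Fen1 also join and trim fragments of the lagging strand during replication. The glycosylase Neil2 was higher (1.08, adjusted p = 0.0107), from a low level of 1.06 ± 0.335 CPM in vehicle (SD, n = 5).

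Nucleotide excision repair had 5 of 22 genes lower, close to the share of all loci, and 1 higher. The lower ones included the TFIIH gene Gtf2h3 (-0.73, adjusted p = 0.00734), Ercc1 (-0.50, adjusted p = 0.014) and Ercc2 (-0.31, adjusted p = 0.0374), whose locus also lists Mir343. The Ercc2 call was lost in 7 of the 10 fits that left out a sample, and Ercc1 was at 0.17 with the epithelial marker covariate (adjusted p = 0.714). The nuclease Ercc5 was higher (0.56, adjusted p = 0.000917), with all JHU083 samples above all vehicle samples. Translesion synthesis and direct reversal had 4 of 11 genes higher and 0 lower; DESeq2 and limma-voom gave 0 lower as well, and 3 were lower at an unadjusted p under 0.05 in edgeR. The higher ones included the bypass polymerases Polk (0.55, adjusted p = 0.0044) and Rev1 (0.34, adjusted p = 0.0177) and the methyltransferase Mgmt (0.51, adjusted p = 0.00807). Among 22 other checkpoint genes 9 were lower and 2 higher. Tipin, the partner of TIMELESS, fell (-1.02, adjusted p = 4.15e-06), as did the CHK1 mediator Clspn (-0.66, adjusted p = 0.00146) and the kinase Wee1 (-0.61, adjusted p = 0.0281), which was at -0.49 without JHU083 replicate 3 and at 0.17 with the epithelial marker covariate (adjusted p = 0.792). The p53 inhibitors Mdm2 (0.45, adjusted p = 0.0224) and Mdm4 (0.42, adjusted p = 0.0252) were higher. Of the 10 fits that left out a sample, 5 lost the call of Wee1, 5 that of Mdm2, 6 that of Mdm4 and 3 that of Rev1. Library totals only also lost the calls of Mdm2 (edgeR adjusted p = 0.0657), Mdm4 (adjusted p = 0.0739) and Rev1 (adjusted p = 0.0578). Wee1 lost its call with quality weights in limma-voom (adjusted p = 0.0761). With the epithelial marker covariate Mgmt was at 0.13 (adjusted p = 0.784), and Ube2t, Paxip1, Neil2, Gtf2h3, Ercc5, Rev1 and Clspn also lost the call in the same direction.

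Of 19 transcripts of p53 targets tested, 4 had a negative fold change; 4 were higher, near the 18.4% of all loci, and 2 lower, with a median of 0.15. Cdkn1a, which encodes the inhibitor p21, had 461, 452, 426, 450 and 490 CPM in vehicle and 572, 398, 519, 515 and 443 CPM in JHU083, and did not pass (log2 fold change 0.10 ± 0.09 SE, edgeR adjusted p = 0.401). Of the replication genes used as context, 14 of 15 were lower with a median of -0.97, and 13 of 15 mitotic genes were lower with a median of -1.17. The exceptions included Pcna, the replication clamp, at -0.26 (adjusted p = 0.05 after rounding, not past the threshold), which passed with DESeq2 (adjusted p = 0.0339) and limma-voom (adjusted p = 0.0491), and at -0.33 without JHU083 replicate 3 (adjusted p = 0.00591). Mki67, a marker of cycling cells, had 88.9, 85.2, 92, 92.5 and 81.1 CPM in vehicle and 90.6, 106, 41.9, 73.4 and 77.3 CPM in JHU083. Its JHU083 samples spanned the vehicle range and replicate 3 was lowest, and its log2 fold change of -0.18 ± 0.17 (SE, edgeR adjusted p = 0.448) did not pass; without replicate 3 it was -0.02, and with length correction it passed at -0.30 (adjusted p = 0.0398). The part of replication, of mitotic genes and of the epithelial markers in the decreases of repair genes was not tested beyond the covariate fit given above.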

How the data were processed

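Polyadenylated RNA of sorted macrophages was made into paired-end libraries with random priming, per the labels' protocols and the series' design text. Per the submitters' processing notes, bcl2fastq 2.17.1.14, FastQC 0.11.2, TopHat2 2.1.1 and the build GRCm38 were used; the counting program, strand setting and annotation are not given in the sources used here, so overlapping and antisense genes can share fragments. The deposited counts are not whole and were given the unit of expected counts: nearly all are multiples of a step per sample (0.888 to 1.1697). Division by the step gave whole numbers, within 0.02, for 98.9% to 99.4% of positive values, and these were rounded to recover fragments. That the authors scaled fragment counts is an inference from the values. A second deposited column was taken as FPKM, also from its values. A row without a symbol (0.0017% of fragments) was left out. Coordinates and transcript lengths are those of GENCODE M21, and promoters those of RefSeq.

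Samples were grouped by labelled treatment. Fragments were filtered with filterByExpr, scaled by TMM and tested with edgeR 4.0.16 in R 4.3.3 (quasi-likelihood F-test), with Benjamini-Hochberg adjustment over 12500 loci at 0.05. The SE is the absolute log2 fold change divided by the square root of F. Log2 CPM used a prior of 2 counts; ratios of pairs were tested by exact permutation with adjustment over 8 pairs. The script was tested on simulated data. Alternatives used DESeq2 1.42.0, limma 3.58.1, other scaling, filters and subsets of loci or samples. A correction for transcript length (mgcv 1.9.3) and an epithelial marker covariate were chosen after seeing the data. Python 3.11.15 with scipy 1.17.1 was used otherwise.

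The genes and lists were chosen with earlier results of these data known. Every gene of the main list is named, with values in every sample for the 5 largest changes, the housekeeping genes and the pairs; H2afx was added because it equals the fifth at 2 decimals. Of each other list up to 3 called genes per direction are named, plus Mki67, Pcna and Cdkn1a; a few genes that the rule would name are not reported here.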

Additional observations from a re-analysis of the deposited data

Results flagged for a closer look

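Single samples that stood apart from the other 4 of their group were sought over 63 genes in both groups, or 126 groups of 5, with a gap of more than 0.71 of the group's range (Dixon's test). Chance gives about 6.3 such groups, and 10 were found. In 4 of them JHU083 replicate 3 was the low sample (values are log2 CPM). Brca2 was at 1.84 there, against 2.43 to 2.57 in the other 4. Rbbp8 was at 3.96, against 4.66 to 4.82. Atr was at 3.47, against 4.33 to 4.57, and Smc6 at 5.58, against 6.18 to 6.35. The report gives the values of Brca2, Rbbp8 and Atr without this sample, and Smc6 was then at a log2 fold change of 0.49 (edgeR adjusted p = 0.00135); 8 of the 10 fits that left out a sample lost its call.

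The other 6 were spread over samples. Rad54l was low in vehicle replicate 3 at 4.34, against 4.66 to 4.78, and Atm was high in the same sample at 4.33, against 3.56 to 3.77. Exo1 was high in vehicle replicate 1 at 2.58, against 2.02 to 2.14. Wee1 was low in vehicle replicate 4 at 2.60, against 3.20 to 3.39. Neil2 was high in JHU083 replicate 4 at 1.90, against 0.90 to 1.16, and Ercc1 was low in JHU083 replicate 5 at 2.74, against 3.01 to 3.09.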

How the results depend on the processing

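Of 789 comparisons of the 33 genes with an alternative, 688 kept direction and side of the threshold, 56 lost the call, 10 gained one and 35 changed sign; over all named genes these were 1277, 169, 23 and 39 of 1508. The 19 called genes stayed negative in every alternative that tested them. The same 19 were called with DESeq2, limma-voom, RLE, library totals, rounded values and length correction. With quality weights in limma-voom 18 were called, as Brca1 lost its call (adjusted p = 0.0519). Without the filter on low counts 18 were called, as Fancl lost its call (edgeR adjusted p = 0.0767). Library totals moved the median of all loci from 0.01 to -0.07.

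Within the samples with Rn18s-rs5 at 0 the lower genes were 7 of 33, with 3 recombination, 1 Fanconi and 0 housekeeping genes (edgeR), other repair genes were 8 lower and 0 higher, and loci were 531 higher and 585 lower. Within the others, 4 recombination and 1 housekeeping genes were lower, 3 other repair genes and 1276 loci were higher. Fewer samples enter these fits. With the marker covariate 10 genes were lower, 4 higher, and 1 recombination and 4 housekeeping genes were lower, with medians of -0.35 and -0.52. Single-symbol loci left 1 housekeeping gene lower, since Parp1 and Atrip list further symbols. Other repair genes that were higher numbered 19 with quality weights, 6 with library totals and 18 with length correction; the cause was not tested.

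Same-numbered samples correlated at -0.42, -0.2, -0.61, -0.36 and -0.18 after centring within each group. The labels do not say whether a shared number means a shared batch, and these values cannot settle it. With the replicate number as a block, 16 genes, 1 of them housekeeping, were lower and 7 other repair genes higher; Fancl, Parp1 and Atrip lost the call, as did Smc6, Ube2t, Paxip1, Ercc2, Wee1, Mdm2 and Mdm4 among the other genes named here (adjusted p of 0.0526 to 0.13).

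Leaving out each sample gave 15 to 19 genes lower and 0 to 1 higher, 7 to 8 recombination, 2 to 4 Fanconi and 1 to 3 housekeeping genes lower, 26 to 40 other repair genes lower and 6 to 18 higher, and 1899 to 2931 loci lower and 1823 to 2896 higher. Pair differences then ranged from -1.17 to -1.04 (Chek1 over Chek2), 0.94 to 1.19 (Neil3 over Ung), -0.71 to -0.49 (Fancd2 over Fancl), -0.01 to 0.17 (Rad54l over Rad54b), -0.17 to 0.19 (Brca1 over Xrcc6), -0.09 to 0.14 (Brca2 over Parp1), -0.26 to -0.09 (Atr over Atm) and 0.03 to 0.34 (Xrcc2 over Xrcc3). With FPKM, Rad54l over Rad54b was -0.20, Brca1 over Xrcc6 0.07 and Brca2 over Parp1 0.17.

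Genes that changed sign were not called in either fit, except Ercc1 (0.17) and Wee1 (0.17), whose calls were lost with the marker covariate. That covariate also gave Brca2 0.40, Xrcc2 0.29, Fancb 0.76, Xrcc5 0.45, Neil3 0.07, Chek2 -0.07, Mki67 0.61 and Cdkn1a -0.14. Samples with Rn18s-rs5 at 0 gave Rbbp8 -0.03, Xrcc2 0.23, Fancb 0.01, Fancg 0.01, Fancm -0.02, Atm -0.10, Neil3 0.06 and Atr -0.32. Atr was -0.02 with limma-voom and with the replicate block, -0.08 with library totals and length correction, and -0.0 with DESeq2, RLE, no filter, rounded values and single-symbol loci. Leaving out samples moved Atr between -0.08 and 0.15, Fancb between -0.13 and 0.06, Xrcc2 between -0.20 and 0.06 and Neil3 between -0.18 and 0.01. Fancb was 0.01 with length correction. Low counts limit Exo1, Fancb and Xrcc3.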

Other observations

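Values of p53 and of some of its targets are given as a description of genes chosen after their values were seen; 4 of 19 targets were higher, near the 18.4% of all loci, and 2 were lower. DESeq2 and limma-voom each also gave 4 targets higher and 2 lower. The targets Cdkn1a and Mdm2 were examined under the alternatives, as given above. For the genes named below, values under the alternatives and with the epithelial marker covariate were not examined, and the epithelial markers fell as well. Trp53, which encodes p53, averaged 73 ± 7.33 CPM with vehicle against 53.8 ± 3.17 with JHU083 (SD, n = 5). Its log2 fold change was -0.44 ± 0.08 (SE, edgeR adjusted p = 0.00101), and all JHU083 samples lay below all vehicle samples. Trp53inp1, an inducer of autophagy and cell death, rose from 10.5 ± 1.41 to 21.9 ± 5.12 CPM (SD, n = 5; log2 1.07 ± 0.16, SE, adjusted p = 0.000232). Ccng1, a cyclin induced by p53, rose by 0.50 ± 0.09 (SE, adjusted p = 0.000546), and both rose with no overlap between groups. The death receptor gene Tnfrsf10b fell by 1.67 ± 0.24 (SE, adjusted p = 0.000136), from 3.19 ± 0.616 to 0.99 ± 0.243 CPM (SD, n = 5), and Perp, a desmosome protein, fell by 1.32 ± 0.34 (SE, adjusted p = 0.00822). Zmat3 rose by 0.45 ± 0.15 (SE, adjusted p = 0.0323), and Bax, whose locus lists further symbols, was at -0.03 ± 0.09 (SE, adjusted p = 0.787).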
